A study of Homo sapiens with 282 samples.

Results

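Interferon-stimulated genes other than the IFIT family were followed in OCI-Ly3 cells, a human B cell line of diffuse large lymphoma, exposed to 14 compounds. The members are 43 gene symbols taken from a fixed list, of which 42 were measured among 18239 genes on Affymetrix HT HG-U219 arrays; STAT2 was not analysed here. Each gene was read from the probe set with the highest mean over all arrays. The 282 arrays, 94 per time, cover 6, 12 and 24 h after compound addition. Controls at each time were 8 arrays of cells given 1% DMSO, the vehicle, and 2 arrays of cells in medium alone. Methotrexate, a folate antagonist, was given at 100 uM with 6 arrays per time, which carry only the replicate numbers 1, 2 and 3. The other 13 compounds had 3 arrays at each of 2 labelled concentrations. In order of higher and lower concentration these were the topoisomerase I poison camptothecin at 0.31 and 0.01 uM, and the topoisomerase II poisons doxorubicin at 0.101 and 0.03 uM and etoposide at 0.812 and 0.811 uM. Aclacinomycin A, an anthracycline, was given at 0.105 and 0.036 uM, and the DNA crosslinker mitomycin C at 2.56 and 0.553 uM. The translation inhibitor cycloheximide was given at 5 and 0.264 uM and the mTOR inhibitor rapamycin at 22 and 13.8 uM. The histone deacetylase inhibitor trichostatin A was given at 0.143 and 0.114 uM, the kinase inhibitor H-7 at 20.2 and 12.4 uM, and the HSP90 inhibitor geldanamycin at 0.032 and 0.001 uM. The myosin II inhibitor blebbistatin was given at 100 and 10 uM, the kinesin inhibitor monastrol at 100 and 50 uM, and the tubulin poison vincristine at 0.01 and 0.005 uM. All groups come from 1 cell line, and the labels do not give the DMSO percentage of the compound wells. They also do not say whether replicates came from separate cultures, so p-values measure the spread between these arrays, which may be technical.

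Type I and type III interferons bind receptors that signal through the kinases JAK1 and TYK2. A transcription factor complex that holds IRF9 then binds the interferon-stimulated response element (ISRE) in promoters, while interferon gamma acts through gamma-activated sites (GAS). IRF1, IRF3 and IRF7 can bind related elements, so that some of these genes can also be induced without interferon. The products of the genes sense viral RNA, block viral entry, translation or budding, modify proteins with ISG15 or ADP-ribose, and feed back on the pathway itself. In B cells of the activated type, to which OCI-Ly3 is assigned, MYD88 signalling is known to keep part of this program active.

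Member promoters were examined for these elements, with RefSeq windows of 250 bases before to 50 bases after each gene's start on GRCh38.p14. Windows were found for 36 of the 42 members; MX2, OAS2, OASL, USP18, TRIM22 and IRF7 were not matched. The ISRE core, searched as GAAANNGAAA on both strands with overlapping matches allowed, was present in 24 of 36 member genes (66.7%), against 4.38% of 27305 genes with a window. GAS, searched as TTCNNNGAA on both strands, was present in 12 of 36 member genes (33.3%), against 9.38% of all genes. A match is a description of letters and was not tested as a binding site. OAS1, IFI35, HERC6, UBE2L6, SAMD9L, XAF1, IRF1, IRF9, SP100, SP110, ADAR and CMPK2 had windows without the ISRE core letters. The segments below, read on the gene's own strand with the core in capitals, belong to 8 members whose values carry the results that follow.
ISG15, chr1:1013370-1013419, plus strand: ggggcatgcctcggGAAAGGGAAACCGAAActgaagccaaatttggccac
IFI27, chr14:94110608-94110657, plus strand: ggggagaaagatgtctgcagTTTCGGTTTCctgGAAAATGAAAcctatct
IFIH1, chr2:162318808-162318857, minus strand: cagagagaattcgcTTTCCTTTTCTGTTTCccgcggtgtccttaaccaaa
DDX60, chr4:168318811-168318860, minus strand: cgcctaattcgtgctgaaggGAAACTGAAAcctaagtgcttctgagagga
EPSTI1, chr13:42992262-42992311, minus strand: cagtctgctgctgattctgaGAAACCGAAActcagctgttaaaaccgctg
ISG20, chr15:88638927-88638976, plus strand: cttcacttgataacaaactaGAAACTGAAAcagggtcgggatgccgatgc
SAMD9, chr7:93118086-93118135, minus strand: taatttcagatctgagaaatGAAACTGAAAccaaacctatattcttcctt
PARP14, chr3:122680790-122680838, plus strand: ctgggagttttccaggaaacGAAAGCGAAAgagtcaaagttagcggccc
In ISG15 the capitals cover 2 overlapping matches, and the IFI27 segment holds the core once on each strand. A match is a description of the letters in the window, and its part in the values was not tested.

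Values are log2 intensities, so that a difference of 1 is a doubling on the intensity scale, and levels of different genes are not compared. The upper quartile of an array lay between 8.15 and 8.35 at 6 h, and reached down to 6.91 at 12 h and 6.92 at 24 h. Arrays with an upper quartile under 8, or with the 3' probe set of ACTB more than 2 above its 5' probe set, are called low-signal arrays. None of the 94 arrays at 6 h met this, while 31 did at 12 h and 17 at 24 h. On them background read higher: the median of 23 nonspecific control probe sets was 4.01 to 5.25 on the 17 low-signal arrays at 24 h and 3.57 to 4.03 on the other 77. Counts at 12 and 24 h are therefore given with and without these arrays, and the 6 h set is described first. Of the 42 members, 27 lay above the array median on all 8 DMSO arrays at 6 h and 12 lay below it on all of them, MX1, RSAD2, HERC5 and HERC6 among the 12. Markers of B cells and of other cell types were read beside the members at 6 h. All 8 monocyte and macrophage markers were below the array median on all DMSO arrays, and the mean of that list was 3.94 to 4.16 over all groups. The mean of 7 B cell markers ranged from 6.07 to 6.33 and that of 8 T and NK cell markers from 4.95 to 5.23, with 5 genes of each list below the array median on all DMSO arrays, and that of 6 plasmacytoid dendritic cell markers from 5.7 to 6.13, with 3 below. The highest gene of the B cell list was IRF4 at 13.16 in DMSO and that of the plasmacytoid list TCF4 at 9.47, which raise these means. The part of these markers in the results was not tested. In bulk RNA, fewer cells expressing a gene and less RNA per cell cannot be told apart.

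The vehicle itself went with different levels of several members, and these changed with time. SAMD9, an inhibitor of poxvirus translation that also restrains cell growth, read 7.51, 7.84 and 8.02 (lowest, median, highest) on the 8 DMSO arrays at 6 h and 5.02, 5.40 and 5.63 at 24 h. The medium arrays read 7.93 and 8.34 at 6 h and 7.57 and 7.49 at 24 h. At 24 h every DMSO array was therefore below both medium arrays, with a difference of -2.15 ± 0.35 (SE; limma). Its neighbour and relative SAMD9L went the same way, from a DMSO mean of 7.80 at 6 h to 5.75 at 24 h, where the medium arrays read 7.24 and 7.67. Among the 42 members, DMSO minus medium was called for 5 at 24 h, all lower, where 0.713% of all genes were called. These were SAMD9, SAMD9L (-1.70 ± 0.31), the ubiquitin ligase gene DTX3L (-1.19 ± 0.23), the mono-ADP-ribosyltransferase gene PARP12 (-1.08 ± 0.26) and OAS3, which makes the second messenger of RNase L (-1.04 ± 0.24), with adjusted p from 3.13e-05 to 0.0195. With 2 medium arrays the count was 2 without medium replicate 1 and 1 without medium replicate 2, and it was 19 (4 higher, 15 lower) without the low-signal arrays, where 20.2% of all genes were called.

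At 6 h, DMSO minus medium was called for 5 members higher and 9 lower, where 25.5% of all genes were called. IRF7, the factor that amplifies interferon alpha transcription, read 8.29 and 8.03 in medium and 8.59, 8.87 and 9.14 in DMSO, a difference of 0.72 ± 0.10. ISG15, the ubiquitin-like modifier, was higher in DMSO by 0.50 ± 0.08, and EPSTI1, a stromal interaction gene induced by interferon, was lower by 0.73 (a difference of -0.73 ± 0.07). The groups did not overlap for any of these 3 genes. EPSTI1 read 9.26 and 9.27 in medium, so a group raised by less than 0.73 against DMSO at 6 h still averaged below medium. Over time in DMSO alone, 30 of 42 members had a lower mean at 24 h than at 6 h, with a median difference of -0.34 over members and 0.05 over all genes. PARP14 fell in mean from 6.96 to 5.62, IFI44 from 6.54 to 5.37 and DDX60 from 4.56 to 3.56, while EPSTI1 went from 8.53 to 8.79. Each time is a separate set of arrays, so time and array set cannot be told apart. Every compound is compared with these DMSO arrays. For the 5 members called lower in DMSO than in medium at 24 h, the medium values are given beside the 24 h rises below.

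**Figure D1:**
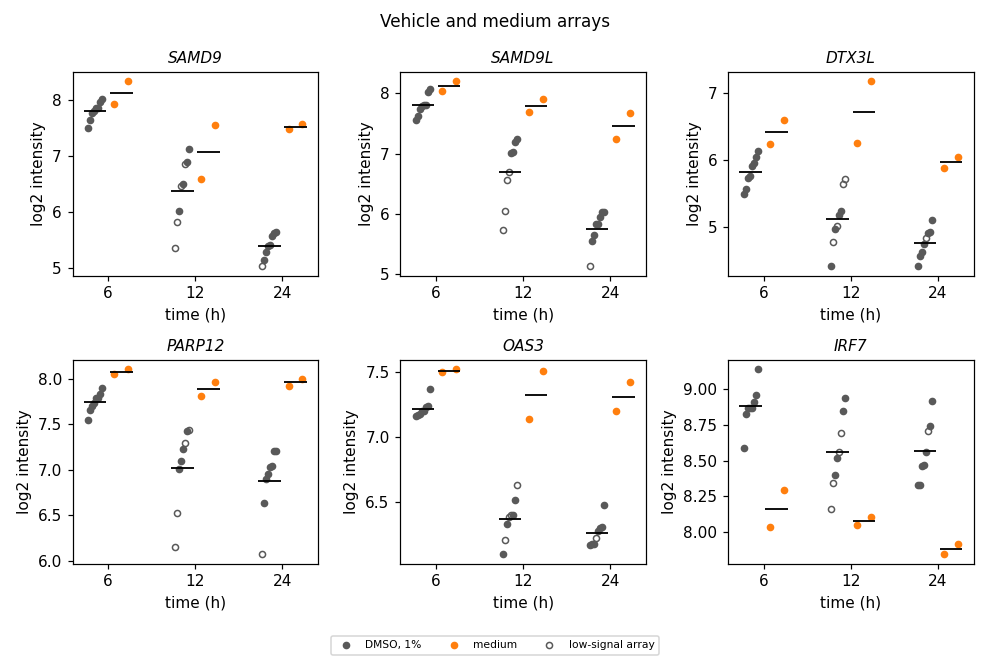
Log2 intensity of 6 members on each DMSO array (grey) and medium array (orange) against time in hours; open circles are low-signal arrays and bars are group means. SAMD9 and SAMD9L fell on DMSO arrays to means of 5.38 and 5.75 at 24 h, while the medium arrays read 7.24 or more for both genes, and IRF7 was higher in DMSO at 6 h.

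At 6 h the members moved in some compounds and hardly in others. Over 14 compounds at their higher concentration, 93 member and compound pairs were called higher and 48 lower at an adjusted p under 0.05. No member was called with methotrexate or vincristine, where 1.75% (1.17% higher, 0.587% lower) and 0.949% (0.532% higher, 0.417% lower) of all genes were called. With camptothecin and with trichostatin A 26 of 42 were called, where 46.9% and 44.7% of all genes were. With H-7 21 were called, 50.0% of the members, and 50.0% of all genes were called as well. All these comparisons use the same 8 DMSO arrays. MX1, MX2, IFI44L, RSAD2, HERC5 and HERC6, which include the best known antiviral effectors, were called in no compound at 6 h. Their changes lay between -0.34 (MX2, trichostatin A) and 0.39 (RSAD2, aclacinomycin A). On DMSO arrays at 6 h they read at most 3.73 (RSAD2) to 5.20 (MX2), while array medians were 5.57 or more. At such low signal the absence of a call does not show the absence of a response.

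**Figure D2:**
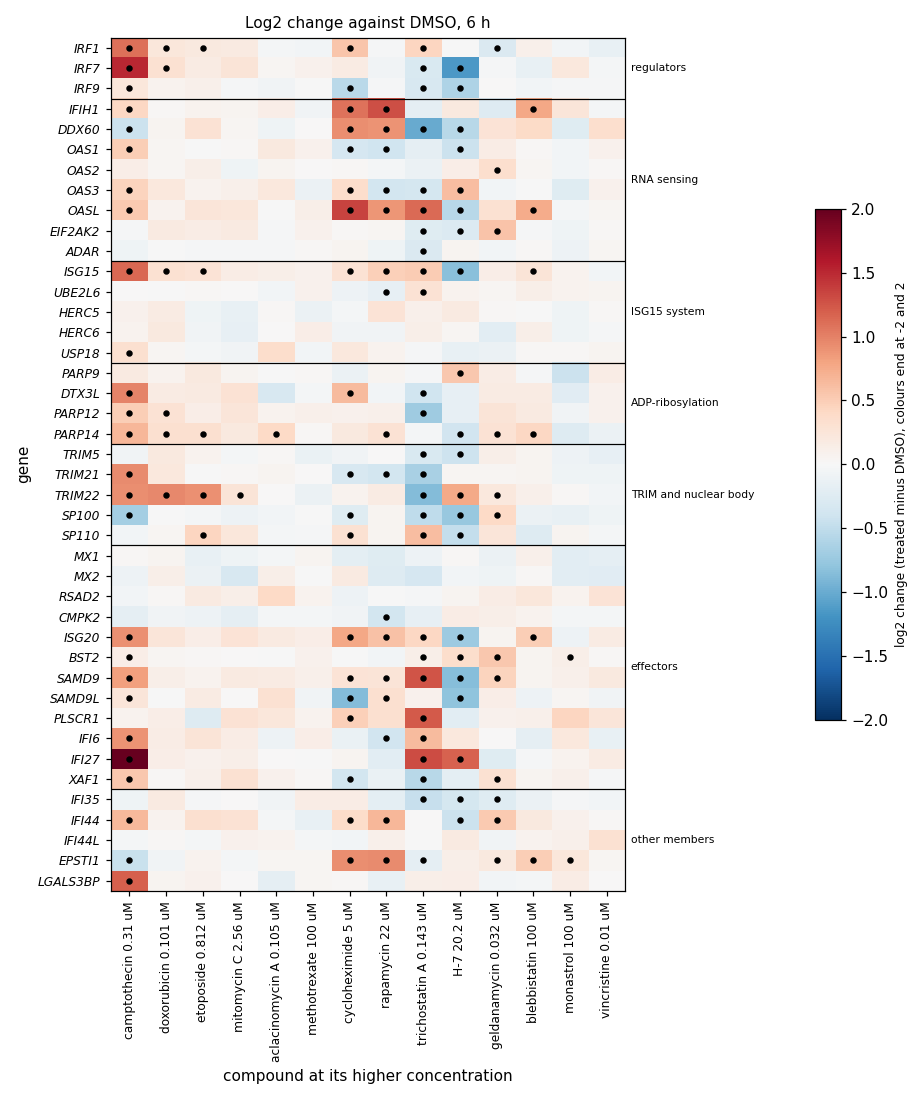
Log2 change against DMSO at 6 h for 42 members (rows, grouped by known role) and 14 compounds (columns); black dots mark an adjusted p under 0.05. The camptothecin column holds 23 rises and 3 falls, H-7 holds 5 rises and 16 falls, and MX1, MX2, RSAD2, HERC5, HERC6 and IFI44L carry no dot.

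Camptothecin at 0.31 uM raised 23 members and lowered 3 at 6 h, where 27.0% of all genes were called higher and 19.9% lower (46.9% in all). The median change of the 42 members was 0.23, against 0.06 for all genes. Among the regulators, IRF7 read 10.46, 10.30 and 10.41 after camptothecin, and the DMSO arrays ended at 9.14. The change was 1.51 ± 0.09 (adjusted p = 4.1e-28; this and the following p-values are from limma with Benjamini-Hochberg adjustment). IRF1, which binds ISRE-like elements and follows both interferon gamma and NF-kappa B signals, read 10.05, 9.86 and 9.88 against DMSO values of 8.76 to 8.88. Its rise of 1.10 ± 0.06 was present in all 4 probe sets of the gene. IRF9, the DNA-binding part of ISGF3, rose by only 0.22 ± 0.05, and its lowest treated array lay inside the DMSO range.

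ISG15 read 11.47, 11.54 and 11.50 after camptothecin against at most 10.48 in DMSO, a rise of 1.15 ± 0.07. IFI27, a mitochondrial apoptosis-linked protein and a common marker of interferon exposure, read 7.06, 7.31 and 7.24, while the DMSO arrays read 4.83, 5.26 and 5.58. At 2.01 ± 0.13 this was the largest rise of any member in any compound at 6 h. LGALS3BP, a secreted galectin-binding glycoprotein, read 5.28, 5.74 and 5.62 against 4.05, 4.29 and 4.87, a rise of 1.2 ± 0.12. Camptothecin was the only compound in which LGALS3BP passed the test at 6 h. DTX3L rose by 0.99 ± 0.15, but 1 of its 3 probe sets did not move the same way (-0.05). The antibody receptor and ubiquitin ligase TRIM21 rose by 0.94 ± 0.07, TRIM22 by 0.92 ± 0.08, the exonuclease ISG20 by 0.92 ± 0.10, IFI6 by 0.90 ± 0.11 and SAMD9 by 0.82 ± 0.10. Treated and DMSO arrays did not overlap for these 5 genes.

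The 3 members that camptothecin lowered were the nuclear body gene SP100 (-0.69 ± 0.07), EPSTI1 (-0.45 ± 0.06) and the RNA helicase gene DDX60 (-0.43 ± 0.14). SP100 read 8.92, 8.90 and 8.76, all under the lowest DMSO array at 9.38. DDX60 overlapped with DMSO, and it was no longer called without camptothecin replicate 2 (-0.28). EPSTI1 and DDX60 were both called higher with rapamycin and cycloheximide.

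The topoisomerase II poisons gave a narrower pattern at 6 h. With doxorubicin 6 members were called higher and 0 lower, where 7.14% (3.4% higher, 3.74% lower) of all genes were called, and with etoposide 5 and 0, where 4.57% (2.48% higher, 2.09% lower) were called. TRIM22, a ubiquitin ligase gene that interferon induces and that is also described as a target of p53, read 11.27, 11.27 and 11.16 after doxorubicin. It read 11.07, 11.24 and 11.23 after etoposide, and the highest DMSO array was at 10.37. The rises, 0.96 ± 0.08 and 0.91 ± 0.08, were of the size seen with camptothecin, and all 6 probe sets of the gene rose with each of the 3 compounds. ISG15 rose by 0.31 ± 0.07 with doxorubicin and by 0.27 ± 0.07 with etoposide, the latter lost without etoposide replicate 1 (0.25). Etoposide also raised SP110, a nuclear body gene of macrophage defence, by 0.44 ± 0.10. IRF1, PARP14 and, for doxorubicin, IRF7 and PARP12 were called at 0.20 to 0.33, and each of these calls was lost when certain single arrays were left out. IRF1 was then at 0.18 to 0.20, PARP14 at 0.26 to 0.30 and PARP12 at 0.26 to 0.33, and IRF7 at 0.30 and 0.23 without doxorubicin replicates 2 or 3.

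The direct contrast tested whether camptothecin and the topoisomerase II poisons differed at these concentrations, which are not matched. Camptothecin minus doxorubicin was called higher for 17 members and lower for 4 at 6 h, where 41.1% of all genes were called, and camptothecin minus etoposide for 18 and 4, where 41.2% were called. IFI27 was higher with camptothecin by 1.87 ± 0.16 and 1.93 ± 0.16, IRF7 by 1.2 ± 0.10 and 1.34 ± 0.10, and LGALS3BP by 1.14 ± 0.14 and 1.12 ± 0.14. ISG15 was higher by 0.84 ± 0.08 and 0.88 ± 0.08. TRIM22 differed by -0.04 ± 0.09 from doxorubicin and 0.02 ± 0.09 from etoposide, and neither difference was called. SP100 was lower with camptothecin than with either, by 0.68 and 0.64 (-0.68 ± 0.09 and -0.64 ± 0.09).

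Mitomycin C raised 1 member at 6 h, TRIM22 by 0.26 ± 0.08, where 2.97% (1.88% higher, 1.09% lower) of all genes were called; this call was lost in 6 fits that left out 1 array each, with values of 0.24 to 0.29. Aclacinomycin A, an anthracycline like doxorubicin, raised 1 member, PARP14 by 0.40 ± 0.10, where 0.773% (0.345% higher, 0.428% lower) were called, and the call was lost without replicate 2 (0.42). TRIM22 was not called with aclacinomycin A. Aclacinomycin A and doxorubicin were given at 0.105 and 0.101 uM.

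Cycloheximide at 5 uM raised 13 members and lowered 6 at 6 h, where 33.4% (16.5% higher, 16.8% lower) of all genes were called. OASL, a catalytically inactive relative of the oligoadenylate synthetases that enhances RIG-I signalling, read 7.72, 7.91 and 7.59 against DMSO values of 6.03, 6.36 and 6.64, a rise of 1.35 ± 0.12. IFIH1, which encodes the double-stranded RNA sensor MDA5, read 8.67, 8.66 and 8.63, and the highest DMSO array was at 7.94. It rose by 1.08 ± 0.11, DDX60 by 0.94 ± 0.14, EPSTI1 by 0.93 ± 0.06, ISG20 by 0.78 ± 0.10, DTX3L by 0.63 ± 0.15 and IRF1 by 0.56 ± 0.06, none of them overlapping with DMSO. PLSCR1, a phospholipid scramblase gene, was called at 0.48 ± 0.16, but not without replicates 1 or 3 (0.32 and 0.48). In the other direction, SAMD9L read 6.86, 6.97 and 6.98, all under the lowest DMSO array at 7.56, a change of -0.87 ± 0.09. SAMD9, its neighbour, was called higher by 0.27 ± 0.10. IRF9 fell by 0.54 (-0.54 ± 0.05) and TRIM21 by 0.32 (-0.32 ± 0.07), while XAF1 and OAS1 were called at -0.36 and -0.34 and lost their calls without replicate 2 (-0.28 and -0.26).

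Rapamycin at 22 uM raised 10 members and lowered 6 at 6 h, where 26.6% (13% higher, 13.6% lower) of all genes were called. IFIH1 read 8.83, 8.69 and 9.06, all above the highest DMSO array at 7.94, and rose by 1.29 ± 0.11 with both of its probe sets. EPSTI1 read 9.41, 9.49 and 9.52 against 8.35, 8.53 and 8.70 in DMSO, a rise of 0.94 ± 0.06, while the medium arrays read 9.26 and 9.27. DDX60 rose by 0.90 ± 0.14, OASL by 0.89 ± 0.12, IFI44 by 0.66 ± 0.11, ISG20 by 0.58 ± 0.10 and ISG15 by 0.48 ± 0.07. The falls included OAS1 (-0.41 ± 0.10), IFI6 (-0.39 ± 0.11), OAS3 (-0.37 ± 0.09) and TRIM21 (-0.36 ± 0.07). Within the oligoadenylate synthetase family OAS1 and OAS3 thus fell, OAS2 was at -0.04 ± 0.12 and not called, and OASL rose. CMPK2, a mitochondrial nucleotide kinase gene next to RSAD2, was called at -0.37 ± 0.14 and lost the call in 5 fits that left out 1 array (-0.39 to -0.28). IFI6 lost its call without replicate 3 (-0.30).

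Blebbistatin at 100 uM raised 6 members and lowered 0 at 6 h, where 2.59% (1.67% higher, 0.921% lower) of all genes were called. IFIH1 read 8.26, 8.37 and 8.39, all above the highest DMSO array at 7.94, a rise of 0.77 ± 0.11. OASL read 7.16, 7.29 and 6.93 and rose by 0.74 ± 0.12. EPSTI1 rose by 0.50 ± 0.06 and ISG20 by 0.49 ± 0.10. The EPSTI1 rise was smaller than the gap between DMSO and medium (-0.73), so its mean stayed below medium. The other 2 calls were PARP14 (0.41 ± 0.10, lost without replicate 1 at 0.36) and ISG15 (0.26 ± 0.07, lost without replicates 1 or 2 at 0.22 and 0.27). IFIH1, OASL, EPSTI1 and ISG20 were thus called higher in each of cycloheximide, rapamycin and blebbistatin, 3 comparisons that share their DMSO arrays.

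**Figure D3:**
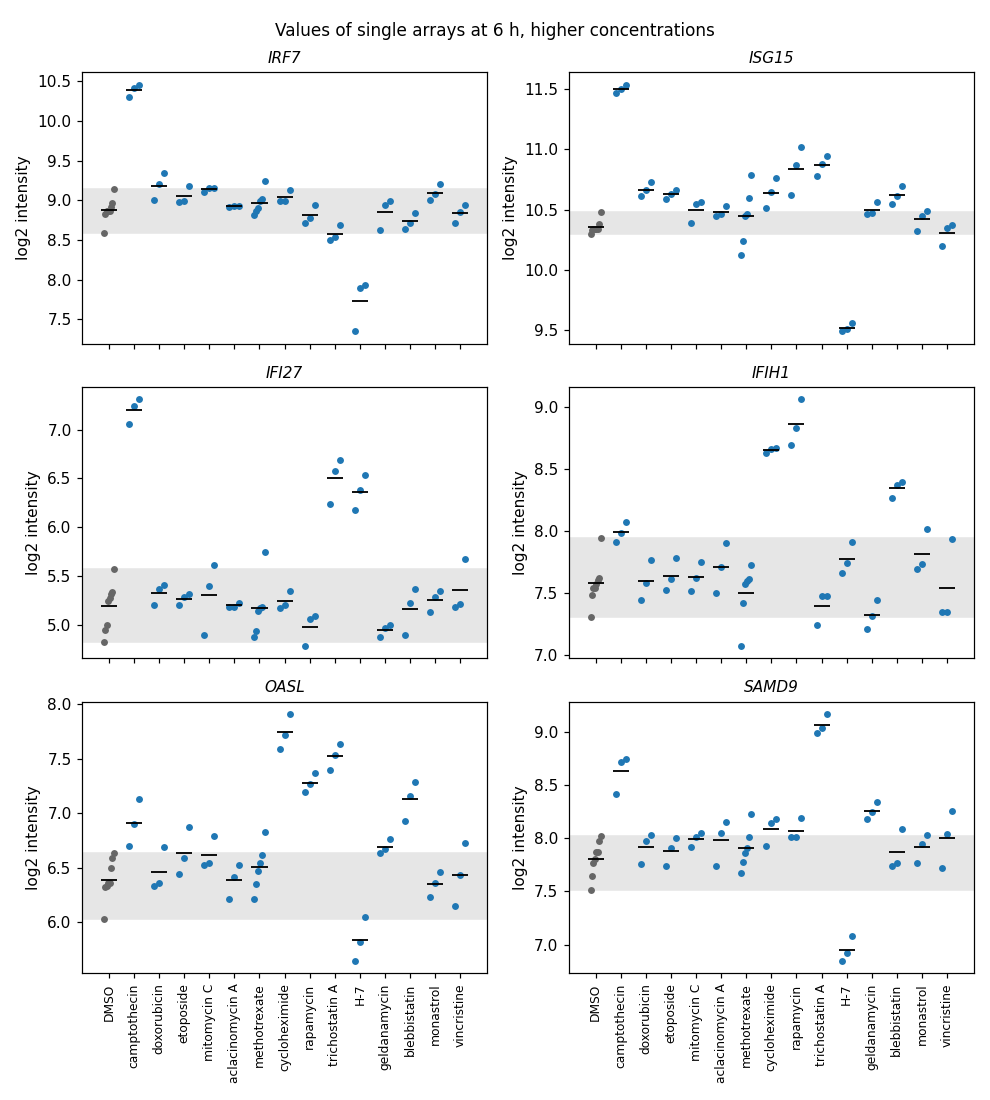
Log2 intensity of 6 members on single arrays at 6 h for DMSO (grey points and band from lowest to highest) and 14 compounds at their higher concentration (blue); black bars are group means. IRF7, ISG15 and IFI27 are highest with camptothecin, IFIH1 with rapamycin, OASL with cycloheximide and SAMD9 with trichostatin A, each above every DMSO array.

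Trichostatin A at 0.143 uM split the members, with 11 called higher and 15 lower at 6 h, where 44.7% (22.3% higher, 22.4% lower) of all genes were called. SAMD9 read 9.04, 8.99 and 9.17 against DMSO values of 7.51, 7.84 and 8.02, a rise of 1.26 ± 0.10, while SAMD9L was not called. IFI27 rose by 1.31 ± 0.13, PLSCR1 by 1.22 ± 0.16, OASL by 1.13 ± 0.12, IFI6 by 0.64 ± 0.11, SP110 by 0.62 ± 0.10 and ISG15 by 0.51 ± 0.07. TRIM22 moved the other way, at 9.36, 9.49 and 9.36 against 10.12 and more in DMSO, a change of -0.87 ± 0.08. DDX60 read 3.35, 3.57 and 3.72 and changed by -1.01 ± 0.14, and the nonspecific controls had medians of 3.53 to 3.85 at 6 h, so DDX60 read no higher there than the nonspecific controls. PARP12 changed by -0.72 ± 0.10, TRIM21 by -0.64 ± 0.07 and XAF1, which encodes a pro-apoptotic partner of XIAP, by -0.56 ± 0.11. ADAR, the double-stranded RNA editing enzyme, read 12.18 on each of the 3 arrays, against 12.41 to 12.55 in DMSO. This was the only compound at 6 h in which ADAR passed the test.

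H-7 at 20.2 uM was the compound with the most falls, 16, beside 5 rises, where 50.0% (23.0% higher, 27.0% lower) of all genes were called. IRF7 read 7.35, 7.93 and 7.90 against DMSO values of 8.59, 8.87 and 9.14, a change of -1.15 ± 0.09. In medium IRF7 read 8.29 and 8.03, closer to the H-7 arrays than DMSO was. SAMD9 changed by -0.86 ± 0.10, ISG15 by -0.84 ± 0.07, SAMD9L by -0.80 ± 0.09, SP100 by -0.76 ± 0.07, ISG20 by -0.72 ± 0.10 and IRF9 by -0.62 ± 0.05, all without overlap. For SP100 6 of 9 probe sets of the gene moved down, the highest at 0.33. The rises were IFI27 (1.17 ± 0.13), TRIM22 (0.76 ± 0.08), OAS3 (0.61 ± 0.09), PARP9 (0.54 ± 0.14) and BST2, which encodes the virion tether tetherin (0.35 ± 0.04). For BST2 3 of 4 probe sets rose, the lowest at -0.49, and for PARP9 2 of 3, the lowest at -0.21. IFI27 read 6.54, 6.18 and 6.38 here, above every DMSO array. OAS3 rose while its relatives OAS1 (-0.43 ± 0.10) and OASL (-0.55 ± 0.12) fell. ISG15 and ISG20, which rose in most compounds where they were called, fell in H-7 alone among the 14 at 6 h.

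Geldanamycin at 0.032 uM raised 10 members and lowered 2 at 6 h, where 16.5% (6.73% higher, 9.75% lower) of all genes were called. BST2 read 13.14, 13.14 and 13.16, above DMSO values of 12.54, 12.61 and 12.66, a rise of 0.54 ± 0.04. EIF2AK2, which encodes the RNA-activated kinase PKR that stops translation, read 8.93, 8.80 and 9.0 and rose by 0.56 ± 0.08. It passed the test upward in no other compound at 6 h. IFI44 rose by 0.53 ± 0.11 and SAMD9 by 0.45 ± 0.10, while IRF1 fell by 0.29 (-0.29 ± 0.06). For IRF1 3 of 4 probe sets fell, and the highest was at 0.315. SP100 was called at 0.40 ± 0.07, but only 4 of its 9 probe sets rose, and PARP14 at 0.29 ± 0.10 with 2 of 6. PARP14, OAS2 (0.34), XAF1 (0.30) and IFI35 (-0.24) lost their calls when 1 array was left out, PARP14 at 0.22 to 0.32, OAS2 at 0.21 to 0.36, XAF1 at 0.22 to 0.35 and IFI35 at -0.24 to -0.18. Monastrol at 100 uM raised 2 members, EPSTI1 (0.22 ± 0.06) and BST2 (0.12 ± 0.04), where 7.59% (4.61% higher, 2.99% lower) of all genes were called. Both overlapped with DMSO, and without replicate 2 the changes were 0.16 and 0.11, neither called. Both rises were smaller than the gap between DMSO and medium (-0.73 for EPSTI1 and -0.15 for BST2).

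The lower concentrations gave 45 pairs called higher and 31 lower over 13 compounds at 6 h. The H-7, trichostatin A and rapamycin lower concentrations gave 18, 25 and 15 of these. The share of all genes called at the lower concentration was 3.65% for camptothecin, 0.548% for doxorubicin, 6.34% for etoposide, 0.938% for mitomycin C, 0.0% for aclacinomycin A, 9.76% for cycloheximide, 17.8% for rapamycin, 44.3% for trichostatin A, 33.5% for H-7, 0.0822% for geldanamycin, 2.63% for blebbistatin, 1.47% for monastrol and 2.61% for vincristine. Camptothecin at 0.01 uM raised 6 members, where 3.65% of all genes were called, led by TRIM22 at 0.70, with IFI27 not called. The higher minus the lower camptothecin concentration was called for 17 members higher and 5 lower, where 39.2% were called, with IFI27 at 2.04 ± 0.16, IRF7 at 1.33 ± 0.10, LGALS3BP at 1.21 ± 0.14 and TRIM22 at 0.23 ± 0.09. Of these 4 genes only TRIM22 was called at 0.01 uM against DMSO. For doxorubicin the higher concentration gave more TRIM22 by 0.47 ± 0.09 and more ISG20 by 0.48 ± 0.12, where 1.5% were called. For cycloheximide 10 members differed (7 higher, 3 lower; 21.2% of all genes), among them SAMD9L at -0.90 ± 0.11 and OASL at 0.70 ± 0.14. For H-7 9 differed (3 higher, 6 lower; 30.8%), with IRF7 at -0.71 ± 0.10 and OAS3 at 0.58 ± 0.11, while ISG15 was at -0.84 against DMSO at both 12.4 and 20.2 uM. For geldanamycin 8 differed (7 higher, 1 lower; 9.9%), with BST2 at 0.52 ± 0.05, and for blebbistatin 4 (all higher; 0.186%), with OASL at 0.97 ± 0.14 and ISG20 at 0.67 ± 0.12. For rapamycin 3 differed (1 higher, 2 lower; 6.16%), and at 13.8 uM DDX60 was already at 1.05 and IFIH1 at 0.99. In trichostatin A, etoposide, mitomycin C, aclacinomycin A, monastrol and vincristine 0 members differed between concentrations at 6 h by limma, where 0.0%, 0.214%, 0.565%, 0.011%, 0.0329% and 0.894% of all genes were called. The etoposide labels, 0.812 and 0.811 uM, are nearly the same concentration, so that contrast cannot show an effect of concentration. At 0.811 uM 2 members were called higher, where 6.34% of all genes were called, against 5 members at 0.812 uM. Trichostatin A at 0.114 uM, close to its higher concentration, had 25 members called where 44.3% of all genes were, with SAMD9 at 1.43, IFI27 at 1.27 and DDX60 at -0.95.

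At 12 h, where 31 arrays were low in signal, 4 of them DMSO, 48 pairs were called higher and 2 lower at the higher concentrations. Of all genes the share called was 3.32% for H-7, 0.0548% for aclacinomycin A, 3.57% for blebbistatin, 9.12% for camptothecin, 3.6% for doxorubicin, 0.148% for etoposide, 0.455% for geldanamycin, 0.0% for methotrexate, 0.137% for mitomycin C, 0.0219% for monastrol and 0.0% for vincristine. The count was 94 in all without the low-signal arrays, where aclacinomycin A, blebbistatin and doxorubicin had no array left. The share of all genes called was then 27.8% for camptothecin, 2.11% for etoposide, 1.9% for mitomycin C, 0.175% for methotrexate, 24.3% for cycloheximide, 13.2% for rapamycin, 31.3% for trichostatin A, 25.9% for H-7, 9.62% for geldanamycin, 5.83% for monastrol and 0.855% for vincristine, so that calls over all genes also increased. TRIM22 was called higher in camptothecin (1.98), doxorubicin (1.91), etoposide (1.35), mitomycin C (1.18) and H-7 (0.92), and lower in trichostatin A (-0.95). In the compounds with arrays left the values without the low-signal arrays were 2.15 for camptothecin, 1.54 for etoposide, 1.45 for mitomycin C, 0.96 for H-7 and -0.93 for trichostatin A. Rapamycin raised ISG20 by 2.40, OASL by 2.20, ISG15 by 1.66, EPSTI1 by 1.58 and IFIH1 by 1.41, where 4.96% of all genes were called for rapamycin and 10 members were called. Cycloheximide raised ISG20 by 2.00, IFIH1 by 1.95, OASL by 1.83 and EPSTI1 by 1.67, with 8 members called where 2.93% of all genes were. Trichostatin A raised SAMD9 by 2.19, OASL by 1.95 and IFI6 by 1.73, with 9 called where 10.5% were. All of these directions were the same without the low-signal arrays, with OASL at 2.71 in rapamycin and SAMD9 at 2.10 in trichostatin A.

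At 24 h, 66 pairs were called higher and 13 lower at the higher concentrations. The 17 low-signal arrays include DMSO replicate 7 and arrays of 7 of the 14 higher concentrations, of which cycloheximide has 2 of 3. Counts were larger without them in most compounds: camptothecin had 12 members called with them and 27 without. The fit shares a common spread per gene over all groups of a time, so low-signal arrays of other groups enter every SE. Blebbistatin at 100 uM, with no low-signal array of its own, went from 1 member called to 13. A member not called at 24 h with all arrays is therefore not shown to be unchanged. MX1, IFI44L, HERC5, TRIM21, EIF2AK2, SP100, SP110, CMPK2, PLSCR1 and LGALS3BP were called in no compound with all arrays. The median of the members was above 0 in 14 of 14 compounds, from 0.00 for aclacinomycin A to 0.47 for camptothecin. These medians share the DMSO arrays, on which 30 members read lower than at 6 h.

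**Figure D4:**
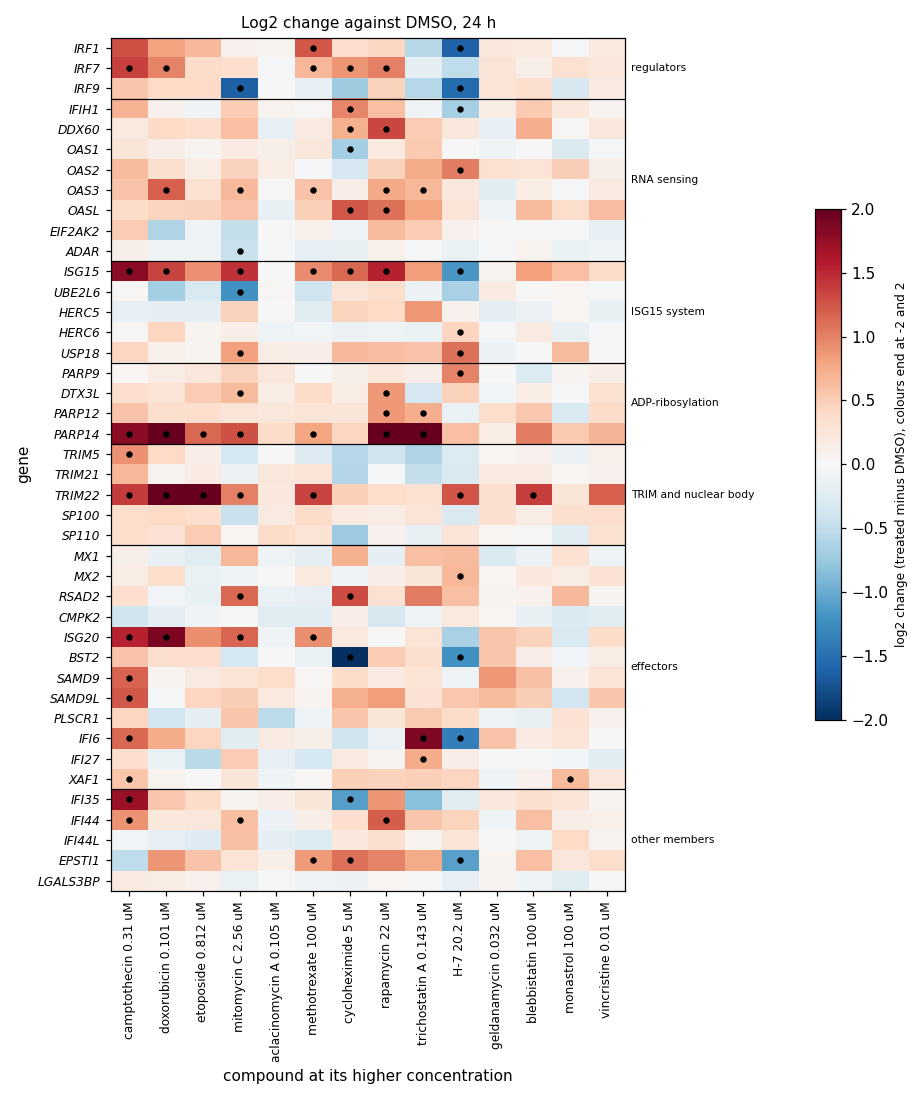
Log2 change against DMSO at 24 h for 42 members (rows) and 14 compounds (columns), all arrays; black dots mark an adjusted p under 0.05. TRIM22 and PARP14 carry 7 dots each, and the columns of camptothecin, mitomycin C, cycloheximide, rapamycin, trichostatin A, H-7 and monastrol, and the DMSO group, include low-signal arrays.

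TRIM22 was the member with the largest rise at 24 h. It read 12.16, 12.06 and 12.11 after doxorubicin, against 9.39, 9.61 and 9.93 (lowest, median, highest) in DMSO and 10.40 and 10.49 in medium. The change of 2.48 ± 0.30 (adjusted p = 1.83e-09) was 1.52 larger than at 6 h, a difference that passed the test itself. Etoposide arrays read 11.60, 11.62 and 11.73, a rise of 2.02 ± 0.30. Methotrexate, which had 0 calls at 6 h, read 10.81, 11.01 and 11.13 (lowest, median, highest of 6 arrays), a rise of 1.36 ± 0.24, and the change from 6 h was 1.47 (adjusted p = 1.09e-06). Camptothecin gave 1.40 ± 0.30, blebbistatin 1.38 ± 0.30 and H-7 1.26 ± 0.30. For blebbistatin the call was lost in 9 fits that left out 1 array (1.27 to 1.51), and for H-7 without replicate 3 (1.28), although treated and DMSO arrays did not overlap in either. In mitomycin C replicates 1 and 3 read 11.85 and 11.86 and the low-signal replicate 2 read 8.19, so that the change was 1.00 ± 0.30 with all arrays and 2.20 without low-signal arrays. With that array kept, the call was lost without replicate 1 or replicate 3 (0.39 each). At 0.105 uM aclacinomycin A gave 0.21, not called. Every compound called here was also above the medium arrays, except the low-signal mitomycin C array.

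**Figure D5:**
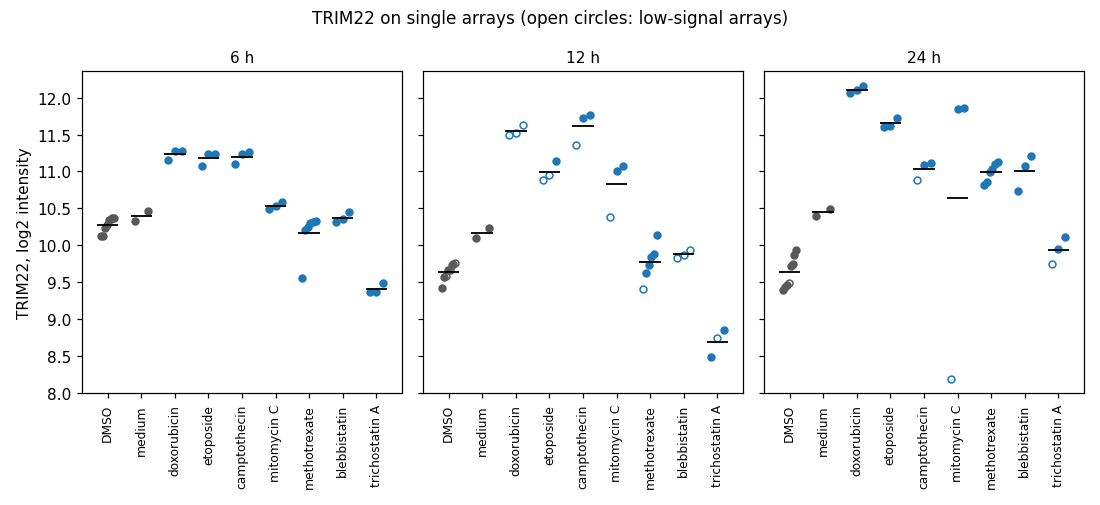
Log2 intensity of TRIM22 on single arrays at 6, 12 and 24 h for DMSO, medium and 7 compounds at their higher concentration; open circles are low-signal arrays and bars are group means. The 3 doxorubicin arrays rise to between 12.06 and 12.16 at 24 h, all 6 methotrexate arrays lie above the DMSO arrays at 24 h but not at 6 or 12 h, and 1 mitomycin C array at 8.19 stands apart from the other 2.

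PARP14, a mono-ADP-ribosyltransferase gene of the macrodomain family, was called higher in 7 compounds at 24 h. It read 7.65, 7.59 and 8.07 after rapamycin, 7.67, 7.93 and 7.48 after doxorubicin, and 7.40, 7.96 and 7.83 after trichostatin A. DMSO arrays read 4.51, 5.79 and 5.98, the lowest being the low-signal replicate 7, and medium arrays 6.37 and 6.30. The rises were 2.15 ± 0.27, 2.08 ± 0.27 and 2.11 ± 0.27, or 1.84, 1.92 and 2.12 without low-signal arrays. Their size depended on the probe set, and the one used gave the highest change in each compound named here. Over the 6 probe sets the change ran from -0.03 to 2.15 in rapamycin and 0.50 to 2.08 in doxorubicin. It ran from 0.10 to 2.11 in trichostatin A and from -0.10 to 1.27 in mitomycin C. Camptothecin gave 1.80 ± 0.27, mitomycin C 1.27 ± 0.27, etoposide 1.15 ± 0.27 and methotrexate 0.79 ± 0.22. The etoposide call was lost without replicates 1 or 2 (1.04 and 1.18), and the methotrexate call without its replicate numbers 1 or 2 or DMSO replicate 7 (0.63 to 0.77). In rapamycin, doxorubicin and trichostatin A the 24 h change exceeded the 6 h change by 1.86, 1.75 and 2.16, with adjusted p of 0.000468, 0.000497 and 8.74e-07.

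ISG15 and IRF7 rose together in 5 compounds at 24 h. ISG15 read 11.44, 11.51 and 11.45 after camptothecin against 9.54, 9.64 and 9.78 in DMSO, a rise of 1.81 ± 0.29. It rose by 1.55 ± 0.29 with rapamycin, 1.44 ± 0.29 with mitomycin C, 1.35 ± 0.29 with doxorubicin, 1.15 ± 0.29 with cycloheximide and 0.94 ± 0.23 with methotrexate. IRF7 rose by 1.36 ± 0.24 with camptothecin, 1.01 ± 0.24 with rapamycin, 0.99 ± 0.24 with doxorubicin, 0.88 ± 0.24 with cycloheximide and 0.67 ± 0.19 with methotrexate; the rapamycin call was lost without replicate 3 (0.80), and the methotrexate call without any 1 replicate number (0.64 to 0.69). For both genes DMSO was above medium at 24 h without passing the test (0.28 ± 0.34 and 0.69 ± 0.28). ISG20 rose by 1.88 ± 0.35 with doxorubicin, 1.54 ± 0.35 with camptothecin, 1.16 ± 0.35 with mitomycin C and 0.92 ± 0.28 with methotrexate. The methotrexate call of ISG20 was lost in 7 fits that left out 1 array or replicate number (0.89 to 0.96), and the mitomycin C call without replicate 1 (0.96).

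Camptothecin at 24 h raised 12 members and lowered 0, where 8.21% (2.8% higher, 5.41% lower) of all genes were called, and 26 and 1 without the low-signal arrays, where 34.0% were. IFI35, an interferon-induced leucine zipper gene, read 9.25, 9.44 and 9.09 against 6.95, 7.63 and 7.79 in DMSO, a rise of 1.73 ± 0.31, while at 6 h it was at -0.09. SAMD9L read 5.97, 7.66 and 7.36, the first from the low-signal array, and rose by 1.24 ± 0.27; this call was lost without replicate 2 (0.91), and the medium arrays read 7.24 and 7.67. SAMD9 read 6.33, 6.68 and 6.67, above the DMSO arrays at 5.02 to 5.63 and below the medium arrays at 7.49 and 7.57. In contrast to 6 h, IFI27 was at 0.34 and LGALS3BP at 0.17, neither called; the differences from 6 h were -1.67 and -1.03, with adjusted p of 9.26e-05 and 0.00141. Camptothecin minus doxorubicin was called for 3 members (2 higher, 1 lower; 3.37% of all genes), namely SAMD9L (1.26 ± 0.32), EIF2AK2 (1.11 ± 0.28) and EPSTI1 (-1.38 ± 0.38). Camptothecin minus etoposide was called for 2, both higher (3.14%), namely IFI35 (1.37 ± 0.38) and IRF7 (1.00 ± 0.29). Without low-signal arrays these counts were 19 and 23, with all genes again as the background (30.0% and 26.4% called).

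Doxorubicin raised 6 members at 24 h and lowered 0, where 6.07% (3.0% higher, 3.07% lower) of all genes were called, and 17 and 2 without low-signal arrays (35.7%); besides TRIM22, PARP14, ISG20, ISG15 and IRF7 the sixth was OAS3. OAS3 read 7.46, 7.54 and 7.38 against 6.17, 6.25 and 6.48 in DMSO, a rise of 1.19 ± 0.21, and the medium arrays read 7.20 and 7.42. Only 2 of 3 OAS3 probe sets rose at 24 h in doxorubicin, methotrexate, mitomycin C and rapamycin. The lowest was at -0.12, -0.22, -0.05 and -0.02 in that order. Etoposide raised 2 (1.45%; 0.927% higher, 0.526% lower), and 14 without low-signal arrays beside 2 lower (25.0%). Methotrexate raised 8 and lowered 0 (4.74%; 3.42% higher, 1.32% lower), against 13 and 7 (35.6%). IRF1 read 9.41, 9.51 and 9.55 after methotrexate and 7.77, 8.31 and 8.56 in DMSO, with no overlap and a change of 1.24 ± 0.35. IRF1 rose in 3 of 4 probe sets, with the lowest at -0.36. Its call, like those of EPSTI1 (0.86 ± 0.25) and OAS3 (0.57 ± 0.17), was lost without any 1 of the 3 replicate numbers, each of which removes 2 arrays (1.23 to 1.26, 0.80 to 0.93 and 0.57 to 0.58). OAS3 averaged 6.84 after methotrexate, below both medium arrays. Mitomycin C had 9 higher and 3 lower (25.8%; 7.77% higher, 18.1% lower), and 16 and 1 without replicate 2 and the other low-signal arrays (29.8%). RSAD2 in mitomycin C read 3.77, 7.53 and 3.53, so that its call at 1.14 rests on the low-signal array and its change was -0.02 without low-signal arrays. USP18 (0.82), UBE2L6 (-1.22), IRF9 (-1.63) and ADAR (-0.45) were called with that array, and without the low-signal arrays stood at 0.06, -0.16, -0.07 and -0.15. Only ADAR was called then. OAS3 (0.64 ± 0.21) lost its call without replicates 1 or 3 (0.30 and 0.35), and DTX3L (0.64 ± 0.20) without replicate 2 (0.60). The OAS3 mean after mitomycin C, which includes the low-signal replicate 2, was below both medium arrays (7.20 and 7.42). DTX3L read 5.26, 5.47 and 5.50, below the medium arrays at 6.04 and 5.89.

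Rapamycin at 24 h raised 9 members and lowered 0, where 2.49% (1.06% higher, 1.44% lower) of all genes were called, and 23 and 0 without low-signal arrays (27.7%). IFI44, an interferon-induced cytosolic protein gene, read 6.79, 6.71 and 6.26 against 5.00, 5.23 and 6.02 in DMSO, a rise of 1.22 ± 0.19. DDX60 read 5.02, 5.83 and, on the low-signal array, 3.83, a rise of 1.34 ± 0.24 with all arrays (0.87 and not called without replicate 2) and 1.91 without low-signal ones. The DMSO arrays read 3.40 to 3.84, no higher than the nonspecific controls, so a change of DDX60 at 24 h is not an exact fold. OASL rose by 1.10 ± 0.27, DTX3L by 0.87 ± 0.20, PARP12 by 0.86 ± 0.23 and OAS3 by 0.75 ± 0.21. For the last 3 genes all rapamycin arrays were above the DMSO mean but below both medium arrays. DTX3L averaged 5.65 after rapamycin and read 6.04 and 5.89 in medium, PARP12 7.74 against 7.92 and 8.00, and OAS3 7.02 against 7.20 and 7.42. The calls of OASL, PARP12 and DTX3L were lost when certain single replicates were left out (0.98 to 1.07, 0.80 to 0.90 and 0.80). The OAS3 call was lost without any 1 of the 3 rapamycin replicates. IFIH1, the leading gene at 6 h, was not called at 24 h with all arrays. Cycloheximide raised 7 and lowered 3 (13.5%; 5.97% higher, 7.52% lower), and 13 and 6 without its 2 low-signal arrays and the others (34.8%), which leaves 1 cycloheximide array. OASL (1.24 ± 0.27), EPSTI1 (1.10 ± 0.31) and IFIH1 (0.98 ± 0.24) were again higher, at 1.22, 1.10 and 0.89 on that array alone, although 1 of 2 IFIH1 probe sets was at -0.65. With all other arrays kept, the OASL call was lost without replicate 1 (0.82) and the EPSTI1 call without replicate 3 (1.01). BST2 read 11.43, 11.38 and 7.76 against 12.28 and more in DMSO, a change of -2.21 ± 0.40 that became -1.02 without the low-signal arrays, still called, and -0.99, not called, without replicate 3 alone. At 6 h BST2 was not called in cycloheximide. RSAD2 (1.30) and DDX60 (0.70) were also called higher and IFI35 (-1.10) and OAS1 (-0.68) lower, each losing the call when certain single arrays were left out.

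Trichostatin A at 24 h raised 5 members and lowered 0, where 5.0% (2.22% higher, 2.79% lower) of all genes were called, and 24 and 2 without the low-signal array (31.2%). IFI6, a mitochondrial and endoplasmic reticulum protein gene that protects from apoptosis, read 9.61, 9.90 and 10.13 against 7.71, 8.07 and 8.23 in DMSO, a rise of 1.86 ± 0.34. IFI27 (0.75), PARP12 (0.73) and OAS3 (0.67) were called with adjusted p of 0.036, 0.0429 and 0.043, and each lost its call when single arrays were left out (0.58 to 0.74, 0.54 to 0.74 and 0.49 to 0.73). The means of PARP12 (7.61) and OAS3 (6.93) after trichostatin A were below both medium arrays (7.92 and 8.00, and 7.20 and 7.42). TRIM22, which trichostatin A lowered at 6 h, stood at 0.30, and DDX60 at 0.51, neither called. The differences from 6 h, 1.17 for TRIM22 and 1.52 for DDX60, passed the test (adjusted p = 0.0031 and 0.000287), although for DDX60 the 6 h treated and 24 h DMSO arrays were at the level of the nonspecific controls, so that 1.52 is not an exact fold. H-7 had 6 higher and 7 lower with all arrays (20.7%; 7.17% higher, 13.5% lower) and 11 and 9 without the low-signal replicate 3 (20.8%). Of those 13 calls, ISG15 read 9.57, 9.24 and 6.70, BST2 12.65, 12.46 and 8.43, and IRF1 8.25, 7.71 and 3.96, the last value of each from that replicate. Without low-signal arrays ISG15 was at -0.27, BST2 at 0.15 and IRF1 at -0.35, and MX2, called at 0.67, was at -0.005. With all arrays only 1 of 4 IRF1 probe sets fell, and the highest was at 0.27. IFI6 (-1.37), IRF9 (-1.55), USP18 (1.11), OAS2 (1.02) and PARP9 (0.99) also lost their calls without replicate 3 alone. At 12.4 uM all 3 H-7 arrays at 24 h were low in signal, and no value is read from them.

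Blebbistatin raised 1 member at 24 h, TRIM22 (0.0493% of all genes called; 0.0329% higher, 0.0164% lower), and 13 without low-signal arrays (14.2%). Monastrol raised 1, XAF1 by 0.63 ± 0.17 (1.21%; 0.482% higher, 0.724% lower), lost in 8 fits that left out 1 array (0.50 to 0.63), and had 8 higher and 5 lower without low-signal arrays (32.8%). Geldanamycin and vincristine had 0 calls with all arrays by limma, where 0.0219% (0.0219% higher, 0.0% lower) and 0.0439% (0.0219% higher, 0.0219% lower) of all genes were called, and 8 higher each without low-signal arrays (5.2% and 9.23%). Aclacinomycin A had 0 members called either way, where 0.0% of all genes were.

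The 24 h change was also compared with the 6 h change in 1 fit. It differed for 35 member and compound pairs. H-7 had 10 of them (12.7% of all genes called), trichostatin A 8 (9.81%), mitomycin C 4 (12.8%), camptothecin 3 (1.92%), doxorubicin 3 (1.12%), methotrexate 3 (2.51%), cycloheximide 2 (3.65%) and rapamycin 2 (0.175%). No member differed in etoposide (0.0713%), geldanamycin (0.0164%), monastrol (0.0493%) or vincristine (0.00548%), or in aclacinomycin A and blebbistatin (0.0% each). All 8 members that differed in trichostatin A had the higher change at 24 h, with PARP14, DDX60, PARP12 (1.45) and IFI6 (1.23) the furthest apart.

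Other genes of the pathway were taken from lists. Their counts at 6 h stand beside 46.9% of all genes called with camptothecin, 50.0% with H-7, 44.7% with trichostatin A, 33.4% with cycloheximide and 26.6% with rapamycin, and several lists lay near or below these shares. Of 17 interferon genes, 0 were called with camptothecin or trichostatin A at 6 h, 1 with cycloheximide (IFNG at 0.29), 1 with rapamycin (IFNA14 at 0.27) and 5 with H-7, led by IFNA5 at 1.22. Of 9 receptor and kinase genes, camptothecin raised 3 and lowered 3 at 6 h, with JAK2 at -1.45 and JAK1 at -1.11, the kinases that carry the interferon signal, and IFNGR1 at 0.77. H-7 raised 3 and lowered 5, with IFNAR1, a type I receptor chain, at -1.12, and trichostatin A raised 4 and lowered 3, with IFNGR2 at -1.16 and IFNAR1 at -1.05. Of 18 nucleic acid sensors and adaptors, camptothecin raised 8 and lowered 4, with the helicase gene DHX58 at 0.72 and the adaptor genes TICAM1 at 0.72 and MYD88 at 0.61. H-7 lowered 9 and raised 3, with the DNA sensor gene AIM2 at -1.60, MAVS at -1.22 and MYD88 at -0.98. Of 8 feedback inhibitors, camptothecin raised 3 and lowered 4, with SOCS3 at 1.62 and SOCS1 at 1.26, and cycloheximide raised 2 and lowered 3, with SOCS1 at 1.04.

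Of 18 interferon gamma and antigen processing targets, camptothecin raised 5 and lowered 2 at 6 h, with NLRC5, the activator of MHC class I genes, at -0.98. Rapamycin raised 1, the chemokine gene CXCL10 at 2.16, and lowered 4. Of 30 other interferon-stimulated genes, camptothecin raised 18 and lowered 3, with RTP4 at 1.58 and HELZ2 at 1.51, H-7 raised 6 and lowered 16, with HELZ2 at -1.37, and trichostatin A raised 10 and lowered 11, with TNFSF10 at 1.82 and NMI at -1.54. The medians of this list were 0.26, -0.16 and 0.03 in these 3 compounds, against 0.23, -0.11 and -0.07 for the members and 0.06, 0.03 and -0.01 for all genes. In the IFIT family, which is not among the members, rapamycin raised IFIT2 by 2.83 and IFIT3 by 2.71 at 6 h, and blebbistatin raised them by 1.80 and 1.16. Cycloheximide raised them by 1.59 and 1.27 and camptothecin by 1.11 and 1.06, while H-7 lowered IFIT3 (-0.59). Trichostatin A lowered IFIT2 at 6 h by 0.90 (-0.90), and at 24 h IFIT2 was at 1.69 there and at 3.46 in rapamycin. Other compounds in which IFIT2 was called higher at 24 h included camptothecin (3.03), cycloheximide (2.60) and blebbistatin (2.18). The IFIT2 mean in DMSO went from 7.04 at 6 h to 4.75 at 24 h, while it went from 6.14 to 6.44 with trichostatin A and from 9.87 to 8.22 with rapamycin.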

How the data were processed

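RNA from OCI-Ly3 wells, harvested in triplicate per the labels' protocols, was measured on 282 Affymetrix HT HG-U219 arrays. The deposited values are log2 intensities, processed with RMA by the authors per the submitters' processing notes; the version is not given in the sources used here. Arrays normalized together share a scale, so a difference is relative to the bulk of genes. Their number limits the precision. Of 49386 probe sets, 93 are controls, 45259 have 1 symbol, 1327 several (not named) and 2713 are not listed in the annotation used. The probe set with the highest mean was kept for each of 18239 genes.

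Each time was fitted separately with limma 3.58.1 in R 4.3.3 (lmFit over 29 groups, eBayes with trend), with Benjamini-Hochberg adjustment over all genes; a gene is called at an adjusted p under 0.05, and errors are SE. The difference between 24 h and 6 h changes came from 1 fit over all 282 arrays, those of 12 h included. The fit was run on simulated arrays with independent normal noise and the same spread per gene in all groups. These hold no low-signal arrays, so that run cannot speak to the 12 and 24 h counts. Members and lists were chosen with earlier results of these data known. For each compound, up to 8 rises and 5 falls with the largest changes are named, with members that differ between compounds or times and up to 4 genes per other list; some further members were named after their values were seen. Promoter windows are from RefSeq (GRCh38.p14). Figures used Python 3.11.15 and matplotlib 3.10.9. The alternatives tried were leaving out single replicates, low-signal arrays or dim genes, quantile normalization, the mean of all probe sets, bioB as a covariate, a replicate block, and fits of only the groups compared.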

Additional observations from a re-analysis of the deposited data

Results flagged for a closer look

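Among 84 groups of 8 DMSO arrays (42 members at 6 and 24 h), 10 had 1 array set apart from the other 7 by a large share of the group's range; chance sets about 1 in 20 groups apart. At 6 h these were ISG15 at 10.48 and OAS3 at 7.37 on replicate 3, SP110 at 7.11 and DDX60 at 3.95 on replicate 2, and LGALS3BP at 4.87 on replicate 8. At 24 h they were RSAD2 at 4.69, PARP14 at 4.51 and CMPK2 at 5.71, all on the low-signal replicate 7, OAS3 at 6.48 on replicate 6 and TRIM5 at 7.21 on replicate 2.

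For 35 pairs of member and compound, the change against DMSO differed between 24 h and 6 h in limma's test of the difference itself (24 h change minus 6 h change, log2). The 2 times are separate sets of arrays. For H-7 the differences were IRF1 (-1.62), IFI6 (-1.58), BST2 (-1.57), EPSTI1 (-1.20), IFI27 (-1.04), IFIH1 (-0.86), IFI44 (0.89), PARP14 (0.98), USP18 (1.26) and SAMD9L (1.34), with adjusted p from 0.00203 to 0.0466. For camptothecin the differences were IFI27 (-1.67), LGALS3BP (-1.03) and IFI35 (1.81), with adjusted p from 9.26e-05 to 0.0386. For cycloheximide the differences were BST2 (-2.21) and SAMD9L (1.58), with adjusted p from 0.00165 to 0.00338. For doxorubicin the differences were TRIM22 (1.52), ISG20 (1.63) and PARP14 (1.75), with adjusted p from 0.000348 to 0.0336. For methotrexate the differences were ISG15 (0.86), IRF1 (1.29) and TRIM22 (1.47), with adjusted p from 1.09e-06 to 0.0356. For mitomycin C the differences were IRF9 (-1.61), UBE2L6 (-1.22), PARP14 (1.07) and ISG15 (1.30), with adjusted p from 0.00308 to 0.0307. For rapamycin the differences were IRF7 (1.08) and PARP14 (1.86), with adjusted p from 0.000468 to 0.0326. For trichostatin A the differences were EIF2AK2 (0.76), OAS3 (1.02), XAF1 (1.03), TRIM22 (1.17), IFI6 (1.23), PARP12 (1.45), DDX60 (1.52) and PARP14 (2.16), with adjusted p from 8.74e-07 to 0.0435. DDX60 in trichostatin A at 6 h and in DMSO at 24 h read at the level of the nonspecific controls, so its difference is not an exact fold. Without low-signal arrays PARP14 in H-7 was at 0.40, UBE2L6 in mitomycin C at -0.16 and IRF9 in mitomycin C at -0.04, none of them called. The other H-7 differences also include the low-signal replicate 3 at 24 h. Without that replicate IRF1 and IFI6 lost their 24 h calls against DMSO, and BST2 changed direction. The 24 h groups of camptothecin, cycloheximide, mitomycin C, rapamycin and trichostatin A also include low-signal arrays.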

How the results depend on the processing

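At 6 h no named change reversed under any alternative. At 24 h, MX2 (-0.005) and BST2 (0.155) in H-7 and RSAD2 in mitomycin C (-0.0243) reversed without low-signal arrays, BST2 in H-7 without treated replicate 3 (0.1587; -1.9512 without replicate 1) and RSAD2 in mitomycin C without treated replicate 2 (-0.1513; 1.8487 without replicate 3). In 0 of 13 compounds at each time did all 3 same-numbered treated and DMSO arrays deviate together (correlations over 0.1), so the number was not used as a pairing. This rule cannot exclude a shift shared by some numbers. Single correlations at 12 h ran from -0.40 (trichostatin A, number 1) to 0.34 (etoposide, number 1). With the replicate block the 6 h count of members called became 0 for aclacinomycin A and 2 for mitomycin C. At 24 h it became 0 for blebbistatin and monastrol, 6 for cycloheximide and H-7, and 1 for etoposide and methotrexate. It became 7 for mitomycin C and 3 for trichostatin A at 24 h. Without low-signal arrays the 24 h counts were 13 for blebbistatin and monastrol, 27 camptothecin, 19 cycloheximide and doxorubicin, 16 etoposide, 8 geldanamycin and vincristine, 20 H-7 and methotrexate, 23 rapamycin and 26 trichostatin A; pairs called were 94 at 12 h, 45 (12 h) and 105 (24 h) at lower concentrations and 97 between concentrations at 24 h. DMSO against medium gave 19, camptothecin against doxorubicin 19 and against etoposide 23, and the change with time 144 instead of 35. Calls over all genes increased as well, for doxorubicin at 24 h from 6.07% to 35.7%. The recounts in this section stand without the share of all genes, so they are not read as results about the members. Fitting only the groups compared gave 0 for aclacinomycin A and monastrol at 6 h, and at 24 h 7 blebbistatin, 21 camptothecin, 16 doxorubicin and rapamycin, 11 etoposide, 2 geldanamycin, mitomycin C and vincristine, 1 H-7, 17 methotrexate, 3 monastrol, 13 trichostatin A, 70 pairs at lower concentrations, 41 between concentrations, 11 for DMSO against medium, 17 for camptothecin against each topoisomerase II poison, and 64 for the change with time. With bioB as a covariate the 24 h counts were 2 for H-7, 0 monastrol, 1 vincristine, 24 pairs at lower concentrations, and 5 and 6 for camptothecin against doxorubicin and etoposide. The mean of all probe sets gave 0 for aclacinomycin A, 2 for mitomycin C and 1 for monastrol at 6 h, and 2 blebbistatin, 0 monastrol, 1 vincristine, 5 and 5 for the camptothecin contrasts at 24 h. Quantile normalization gave 4 for monastrol at 6 h, 5 methotrexate, 0 monastrol and 1 vincristine at 24 h, and 32 pairs at lower concentrations at 12 h. Without the 40% dimmest genes the counts were 1 for methotrexate and 4 for monastrol at 6 h, 0 for monastrol and 5 for camptothecin against doxorubicin at 24 h.

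Leaving out single arrays gave 6 h counts of 0 to 3 for aclacinomycin A, 3 to 6 doxorubicin, 3 to 5 etoposide, 6 to 12 geldanamycin, 0 to 2 methotrexate, 0 to 1 mitomycin C, 0 to 3 monastrol, 0 to 1 vincristine and 8 to 15 for DMSO against medium. At 24 h they were 0 to 1 blebbistatin, 4 to 12 cycloheximide, 1 to 2 etoposide, 0 to 19 H-7, 2 to 8 methotrexate, 6 to 17 mitomycin C, 0 to 2 monastrol, 5 to 9 rapamycin, 2 to 8 trichostatin A, 9 to 35 between concentrations, 1 to 5 for DMSO against medium, 1 to 2 and 0 to 1 for camptothecin against doxorubicin and etoposide, and 20 to 52 for the change with time; lower concentrations at 12 h gave 10 to 26. The cause was not tested.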
